A study of Heliconius erato cyrbia and Heliconius erato demophoon with 32 samples.

Results

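The main wing of late pupae was compared between Heliconius erato cyrbia, a subspecies with iridescent blue wings, and H. erato demophoon, which has none of this blue. The comparison used the 8 libraries of forewing plus posterior hindwing taken at 70% of pupal development, out of 32 libraries in the whole data set. They came from 4 cyrbia animals (animals 9 to 12, all male) and 4 demophoon animals (animals 13, 14 and 16, female, and animal 15, male), 1 library per animal and region, all reared in captivity on Passiflora biflora without treatment. The other 8 main wing libraries, from different animals at 50% development (cyrbia 1 to 4, with 2 males and 2 females, and demophoon 5 to 7, female, and 8, male), and the anterior hindwings of the same animals, which bear a different scale type, are used for reference. Subspecies and sex were nearly confounded at 70%, since only animal 15 separated them.

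Butterfly wing scales are flattened extensions of single epidermal cells, covered by chitin ridges laid down over bundles of actin during pupal life. Iridescence in Heliconius comes from these ridges, whose stacked lamellae reflect blue light. The late pupal stage was chosen as the time when the ridges take shape. In butterflies males carry a pair of Z chromosomes and females a single Z with a W, so a locus can differ between these groups through sex as well as through subspecies. The deposited table pairs no locus with a gene name, so loci are described by their assembly ID, by the reference gene model where there is one (annotated loci) and by chromosome. Tissue identity and cell types could not be checked without named markers.

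Main wing libraries at 70% held from 12966760 counts (animal 9, cyrbia) to 58169692 (animal 15, demophoon). Multidimensional scaling separated the stages on dimension 1 and the subspecies on dimension 2. Loci with no gene model took 10.7% to 11.7% of counts in the cyrbia libraries and 11.8% to 35.0% in the demophoon libraries, with animal 13 at the top (exact permutation test, two-sided, p = 0.0286, the smallest possible with 4 against 4, adjusted p = 0.0857 over 3 library measures). In animal 13 a single unannotated locus on chromosome 7, MSTRG.6728, took 9.87% of all counts and another on chromosome 1, MSTRG.479, took 6.28%. The same loci took 1.45% and 1.12% in animal 14 and at most 0.296% and 0.209% in the other 6 libraries. In the anterior hindwing of animal 13 MSTRG.479 was at 397 CPM (counts scaled to the normalised library size, as CPM in edgeR), against 74400 CPM in its main wing, whereas MSTRG.6728 was at 36400 CPM there, against 117000 CPM in the main wing and 1060 to 1920 CPM in the anterior hindwing of the other demophoon animals. Both loci were called lower in cyrbia (edgeR FDR 0.0340 and 0.0363), and both lost the call without animal 13 or without any 1 cyrbia animal, MSTRG.479 also without animal 14. With the animal as a block over both regions neither was called (limma FDR 0.218 and 0.346).

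Of 15485 loci tested, 1420 (9.17%) were differentially expressed (DE, edgeR FDR below 0.05), 503 (3.25%) higher and 917 (5.92%) lower in cyrbia. The median log2 fold change was 2.94 among the loci higher in cyrbia and -3.49 among those lower, against 0.004 over all loci tested. At least a 2-fold difference was seen in 1240 of them. In whole wing tissue, fewer cells of a type and less RNA per cell cannot be told apart. In 1174 DE loci (82.7%) the 4 libraries of one subspecies all lay above the 4 of the other, as they did in 16.6% of all loci tested. DE loci were a larger share of the 6231 unannotated loci (13.8%) than of the 9254 annotated ones (6.06%). By mean level, 7.91% of loci below 1 CPM, 10.7% of those from 1 to 10 CPM and 9.50% of those from 10 to 100 CPM were DE. Among the 893 loci at 100 CPM or more the share was 4.59%, with 17 loci higher and 24 lower in cyrbia. Of the 1420 calls, 673 held without each of the 8 animals in turn. The top library of the higher group was at least 5 times the next in 26 of the loci higher in cyrbia, 14 of them through animal 10, and in 12 of the loci lower in cyrbia, 6 of them through animal 13.

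**Figure D1:**
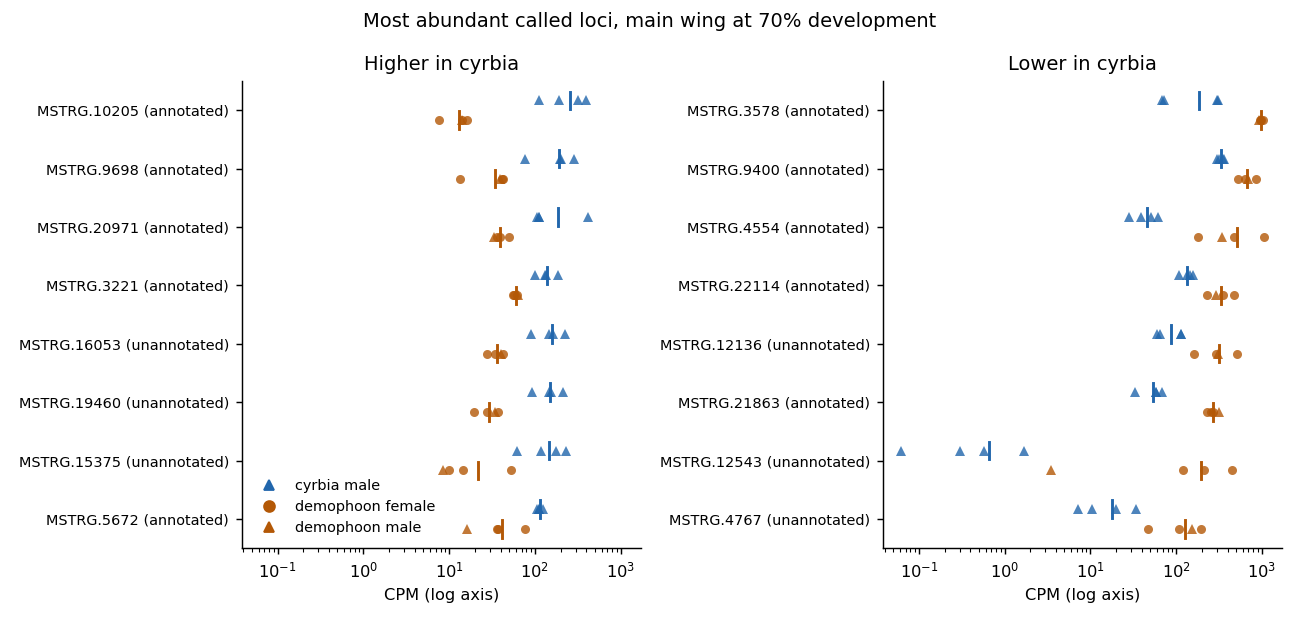
CPM (log axis) of each animal for the annotated and unannotated DE loci of highest mean level in each direction, main wing at 70%. Symbols are single animals, coloured by subspecies and shaped by sex, and vertical bars are group means. The 4 cyrbia animals lie apart from the 4 demophoon animals on every locus drawn, which was a condition for choosing them, and on MSTRG.12543 the demophoon male, at 3.50 CPM, lies far below the demophoon females.

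Among annotated loci lower in cyrbia whose groups did not overlap and which were also called with sex as a covariate, MSTRG.3578 on chromosome 4 (gene model evm.TU.Herato0411.85) had the highest level. Its CPM was 309, 73.1, 69.2 and 297 in cyrbia animals 9 to 12 and 958, 1040, 928 and 985 in demophoon animals 13 to 16. The log2 fold change was -2.39 (SE 0.55, edgeR FDR 0.0146). The demophoon animals were tightly grouped, whereas the cyrbia animals fell into a higher and a lower pair. In the anterior hindwing the cyrbia values were 264 to 770 CPM, against 881 to 1180 CPM in demophoon (log2 fold change -1.40, edgeR FDR 0.0485), and at 50% development the subspecies overlapped (118 to 858 CPM in cyrbia and 528 to 631 CPM in demophoon).

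MSTRG.4554 on chromosome 6 (evm.TU.Herato0606.71) showed a difference that was present at 70% and not detected at 50%. Cyrbia libraries had 28.5, 38.8, 62.4 and 51.6 CPM and demophoon libraries 180, 472, 348 and 1070 CPM, a log2 fold change of -3.52 (SE 0.50, edgeR FDR 0.000661). At 50% all 8 animals lay between 3.99 and 11.1 CPM. The change of the subspecies difference between stages missed the threshold (edgeR FDR 0.0657). MSTRG.9400 on chromosome 10 varied little within groups, at 333 ± 29.0 CPM in cyrbia and 677 ± 137 CPM in demophoon (SD, n = 4), a log2 fold change of -1.02 (SE 0.19, edgeR FDR 0.00492).

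The 3 annotated loci with the smallest p-values among those lower in cyrbia had mean levels of 0.436 to 2.61 CPM there. MSTRG.656 on chromosome 1 (evm.TU.Herato0101.498) was at 3.67, 2.02, 2.33 and 2.44 CPM in cyrbia and at 168, 267, 239 and 192 CPM in demophoon (log2 fold change -6.39, SE 0.38, edgeR FDR 6.44e-07). The groups were far apart in the main wing, but in the anterior hindwing animal 9 of cyrbia reached 257 CPM, within the demophoon range of 163 to 273 CPM, while the other 3 cyrbia animals were at 2.31 to 3.52 CPM. This library read like the remaining cyrbia animals on MSTRG.7826 (no count) and MSTRG.18038 (0.342 CPM). On MSTRG.17738 and MSTRG.21177 it also stood with cyrbia, at 30.1 and 1.64 CPM, against no count and 109 to 293 CPM in demophoon. It read like demophoon on MSTRG.13640, where it had no count and cyrbia animals 10 to 12 were at 20.4 to 32.1 CPM. With it included the anterior difference of MSTRG.656 was not DE (edgeR FDR 0.378), and the source of its high value was not tested. MSTRG.18038 on chromosome 18 (evm.TU.Herato1801.68) was at 0.299 to 0.609 CPM in cyrbia and 9.01 to 19.5 CPM in demophoon (log2 fold change -5.04, SE 0.39, edgeR FDR 4.16e-06). It kept this pattern in both other settings, with 0.309 to 0.440 against 9.88 to 19.4 CPM in the anterior hindwing and 0.281 to 0.746 against 10.4 to 17.5 CPM at 50%.

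Among annotated loci higher in cyrbia that met the same conditions, MSTRG.10205 on chromosome 10 (evm.TU.Herato1007.170) had the highest level, and it was also one of the 3 annotated loci higher in cyrbia with the smallest p-values. Its CPM was 113, 318, 190 and 396 in cyrbia animals 9 to 12 and 16.3, 7.62, 14.3 and 14.2 in demophoon animals 13 to 16. The log2 fold change was 4.28 (SE 0.46, edgeR FDR 6.35e-05). The lowest cyrbia animal was well above the highest demophoon animal. In the animals at 50% the level was already higher in cyrbia, at 36.6 to 105 CPM against 11.9 to 15.7 CPM (log2 fold change 2.29, edgeR FDR 0.00353).

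MSTRG.3221 on chromosome 5 (evm.TU.Herato0501.32) differed by less but evenly. It was at 99.9, 130, 186 and 136 CPM in cyrbia and at 56.2, 57.1, 64.3 and 62.2 CPM in demophoon (log2 fold change 1.20, SE 0.19, edgeR FDR 0.00166). At 50% the subspecies overlapped, with 26.5 to 38.3 CPM in cyrbia and 28.0 to 42.3 CPM in demophoon. MSTRG.20971 on chromosome 20 owed part of its group mean of 186 ± 152 CPM to animal 12, at 414 CPM, while the other cyrbia animals were at 105 to 113 CPM and demophoon at 33.1 to 49.5 CPM. It was called without each animal in turn. MSTRG.9698 on chromosome 10 was at 192 ± 87.4 CPM in cyrbia and 34.4 ± 14.1 CPM in demophoon (SD, n = 4, edgeR FDR 0.00976). MSTRG.5672 on chromosome 6 was the least secure of these loci, at 107 to 125 CPM in cyrbia and 16.3 to 76.6 CPM in demophoon (edgeR FDR 0.0265), and was not called without animal 10, 12, 14, 15 or 16, nor with the animal as a block (limma FDR 0.202).

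A set of 3 unannotated loci on different chromosomes rose and fell together over the 8 libraries, though not in fixed proportion. MSTRG.16053 on chromosome 16 was at 165, 90.7, 148 and 228 CPM in cyrbia and 42.9, 34.5, 40.0 and 28.0 CPM in demophoon (log2 fold change 2.12, SE 0.35, edgeR FDR 0.00186). Its level ranged 8.16-fold over the libraries, whereas the CPM of MSTRG.19460 (chromosome 19, log2 fold change 2.36, edgeR FDR 0.00180) stayed between 0.697 and 1.01 times its own and that of MSTRG.2740 (chromosome 4, log2 fold change 2.20, edgeR FDR 0.00177) between 0.453 and 0.589 times. In the anterior hindwing these ratios were 0.724 to 0.941 and 0.491 to 0.587. The first ratio was lower in every demophoon library than in any cyrbia library, in both regions. In the main wing MSTRG.19460 was at 156, 91.7, 148 and 212 CPM in cyrbia and 36.8, 27.4, 34.8 and 19.5 CPM in demophoon. In the animals at 50% both ratios ranged more widely. MSTRG.19460 was at 5.07 CPM against 9.87 CPM for MSTRG.16053 in animal 7, and at 28.3 against 26.0 CPM in animal 4. CPM is not corrected for length, so the ratios describe how the loci moved together and not their relative abundance. The set was picked after its values were seen. Whether reads were shared between similar copies could not be examined from the counts.

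The unannotated MSTRG.15375 on chromosome 15 was at 61.4 to 229 CPM in cyrbia and 8.47 to 53.1 CPM in demophoon, where animal 16 was the highest and the other 3 were at most 14.6 CPM (log2 fold change 2.76, SE 0.63, edgeR FDR 0.0132). Lower in cyrbia were MSTRG.12136 on chromosome 12, at 88.4 ± 30.4 against 318 ± 143 CPM, and MSTRG.4767 on chromosome 3, at 17.9 ± 12.0 against 126 ± 63.5 CPM (SD, n = 4, edgeR FDR 0.00637 and 0.00191). Both differed in the same direction at 50% (edgeR FDR 0.00561 and 0.0181).

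A count of 0 in every cyrbia main wing library was found for 125 of the DE loci and for 288 of all 15485 loci tested. For a count of 0 in every demophoon library the numbers were 69 and 196. Of these DE loci 29 and 22 were annotated, against 561 of all 1420 DE loci. In 24 of the 125 and 15 of the 69, every library of the other subspecies had at least 1 CPM. A locus with no count in one group passed the filter on low counts only through its level in other groups. These counts therefore describe the loci and are no test of their direction. MSTRG.7826 on chromosome 8 (evm.TU.Herato0821.89) had no count in cyrbia and 18.3, 21.5, 36.2 and 15.5 CPM in demophoon, at least 191-fold lower in cyrbia against a floor of 3 counts per library (edgeR FDR 1.83e-05). The unannotated MSTRG.13449 on chromosome 13 had no count in cyrbia and 49.5, 25.9, 14.1 and 15.5 CPM in demophoon, at least 219-fold lower (edgeR FDR 0.000338). Both were also without a count in the cyrbia anterior hindwing at 70% and in the cyrbia main wing at 50%. In the cyrbia anterior hindwing at 50% MSTRG.7826 had a mean of 0.034 CPM and MSTRG.13449 no count. A count of 0 means that no reads were assigned to a locus, and whether it was transcribed could not be examined from the counts.

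In the opposite direction, MSTRG.17738 on chromosome 17 (evm.TU.Herato1708.55) was at 24.3, 15.2, 17.2 and 20.3 CPM in cyrbia with no count in demophoon (at least 196-fold higher, edgeR FDR 2.83e-05). MSTRG.17637 on the same chromosome (evm.TU.Herato1707.18) was at 3.44, 4.04, 5.96 and 8.23 CPM in cyrbia with no count in demophoon (at least 55.3-fold higher, edgeR FDR 0.000122). In the demophoon main wing at 50% MSTRG.17738 again had no count, and MSTRG.17637 was seen in animal 8 only, at 0.0507 CPM. In the demophoon anterior hindwing MSTRG.17738 had no count at either stage. MSTRG.17637 was seen there in animal 13 only at 70%, at 0.0468 CPM, and had a mean of 0.0132 CPM at 50%. A count of 0 did not always hold for a subspecies. The unannotated MSTRG.13640 on chromosome 13 was at 20.6 to 35.8 CPM in the cyrbia main wing with no count in demophoon (edgeR FDR 0.0263), yet animal 9 had no count in its anterior hindwing and animal 6 of demophoon reached 26.8 CPM at 50%. Without animal 13, 14 or 15 it was not called, nor with the animal as a block (limma FDR 0.245).

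Once sex was added as a covariate, the count of DE loci was 693 (4.48%), with 188 (1.21%) higher and 505 (3.26%) lower in cyrbia. They included 164 of the 503 higher and 494 of the 917 lower loci, and 762 of the 1420 lost their call. Here the effect of sex was estimated over both stages, chiefly from demophoon and from cyrbia at 50%. When the 4 cyrbia males were set against the single demophoon male, 337 loci (2.18%) were DE, 40 (0.258%) higher and 297 (1.92%) lower, on the assumption that this animal varies like the other groups. Of the 10 annotated loci of highest level named above or on Z below, MSTRG.10205, MSTRG.5672, MSTRG.4554 and MSTRG.21863 were called with the males alone (edgeR FDR 0.0226 to 0.0243). MSTRG.9400, MSTRG.22114, MSTRG.3221, MSTRG.3578, MSTRG.20971 and MSTRG.9698 were not (edgeR FDR 0.0966 to 0.306). On 272 of the higher and 493 of the lower DE loci (54.1% and 53.8%) animal 15 lay within the range of the demophoon females and outside that of cyrbia, as on 27.3% of all loci tested. It lay within the cyrbia range only on 12 and 26 of them (2.39% and 2.84%), against 17.3% of all loci tested. A call favours loci on which animal 15 sits with the other demophoon animals, so these shares describe the DE loci and are no test of sex.

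**Figure D2:**
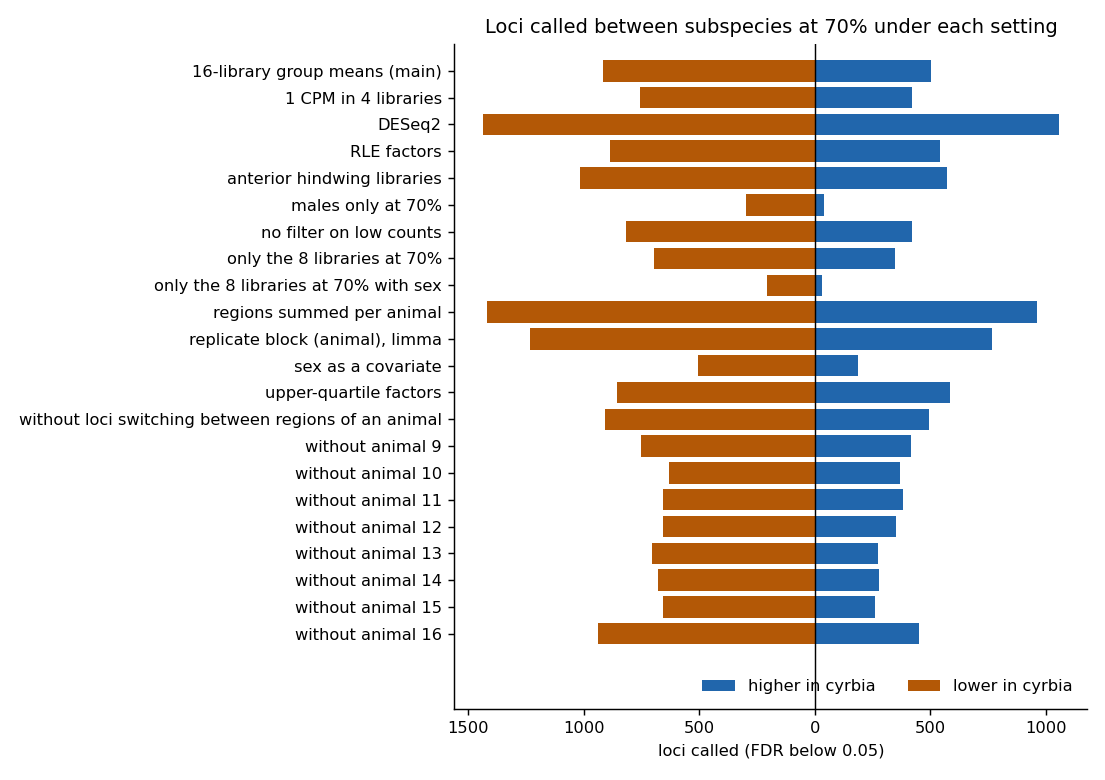
Number of DE loci (FDR below 0.05) higher (right) and lower (left) in cyrbia, main wing at 70%, under each setting tried. Bars are counts of loci, from 32 higher and 209 lower with the 8 libraries alone and sex to 1055 higher and 1436 lower with DESeq2, and loci lower in cyrbia outnumber those higher in every setting.

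The 38 DE loci on which the demophoon male sat with cyrbia included large differences between the group means. Over these 38, the demophoon male at 50%, animal 8, lay within the range of its females on 15, outside it on the cyrbia side on 19 and outside it away from cyrbia on 4. The same split was not made over all loci tested, so these counts have no background and describe the set only. MSTRG.12542 on chromosome 12 (evm.TU.Herato1202.672 and evm.TU.Herato1202.674) was at 6.51, 44.3, 11.2 and 23.8 CPM in cyrbia, at 1730, 1560 and 4440 CPM in the demophoon females and at 21.7 CPM in animal 15 (log2 fold change -6.50, SE 1.17, edgeR FDR 0.00354). Animal 15 lay within the cyrbia range here, and its anterior hindwing showed the same, at 29.5 CPM. On MSTRG.12542 animal 8 was at 988 CPM, below its females (1710 to 2110 CPM) but far above cyrbia (11.4 to 52.6 CPM). Its unannotated neighbour MSTRG.12543 followed the same order, at 0.062 to 1.67 CPM in cyrbia, 119 to 453 CPM in the demophoon females and 3.50 CPM in animal 15, with 141 CPM in animal 8. Its edgeR FDR was 0.00186, and with the animal as a block the limma FDR was 0.0976.

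MSTRG.15323 on chromosome 15 (evm.TU.Herato1507.111) was at 0.824, 0.641, 0.124 and 0.858 CPM in cyrbia, at 117, 140 and 133 CPM in the demophoon females and at 0.504 CPM in animal 15 (log2 fold change -7.33, SE 1.27, edgeR FDR 0.00471). With the animal as a block over both regions the call was lost (limma FDR 0.211). Animal 8 at 50% was at 62.2 CPM, close to its females at 63.3 to 97.0 CPM. MSTRG.17584 on chromosome 17 (evm.TU.Herato1705.87) was at 17.8 to 26.6 CPM in cyrbia, at 102 to 150 CPM in the demophoon females and at 11.3 CPM in animal 15, whereas animal 8 had 154 CPM. Animal 8 thus did not have the low level of animal 15 on MSTRG.15323 and MSTRG.17584. MSTRG.6165 on chromosome 7, an unannotated locus, differed through animals 13 and 14 (603 and 87.8 CPM), since animals 15 and 16 (1.84 and 1.98 CPM) lay within the cyrbia range of 1.15 to 9.02 CPM, and it was not called without animal 9, 10, 11, 12, 13 or 14, nor with the animal as a block (limma FDR 0.513).

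MSTRG.14928 on chromosome 15 had a different pattern, in which both demophoon males were at or near 0. It was at 67.3, 86.1 and 65.5 CPM in the demophoon females at 70% and 0.0576 CPM in animal 15, and at 76.9 to 105 CPM in the demophoon females at 50% with no count in animal 8. The cyrbia females at 50% also had no count. With sex as a covariate its subspecies difference at 70% was not called (log2 fold change -0.14, edgeR FDR 0.991). Cyrbia had no females at 70%, so this fit did not compare females there. Without any 1 cyrbia animal, or with the animal as a block (limma FDR 0.595), the difference at 70% was not called either. At 50%, without the covariate, the locus was called lower in cyrbia (log2 fold change -14.17, edgeR FDR 0.0143). Between the demophoon male and the 3 females at 70%, 6 loci (0.0387%) were DE, with the spread of the single male taken from the other groups. Lower in the male were MSTRG.15323, MSTRG.17584, MSTRG.12276, MSTRG.5829 and MSTRG.18113, and the Z locus MSTRG.21522 was higher, at 76.1 CPM against 5.31 to 11.2 CPM in the females and 2.92 to 5.91 CPM in cyrbia. In the anterior hindwing MSTRG.18113 did not follow, since the male was at 3.62 CPM and females 13, 14 and 16 at 0.117, 0.361 and 31.1 CPM. MSTRG.12276 on chromosome 12 was not DE between the subspecies (edgeR FDR 0.139), and it reversed with the males alone. Animal 15 was at 1.31 CPM there, below cyrbia at 9.65 to 14.2 CPM, while the demophoon females were at 46.2 to 53.0 CPM.

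**Figure D3:**
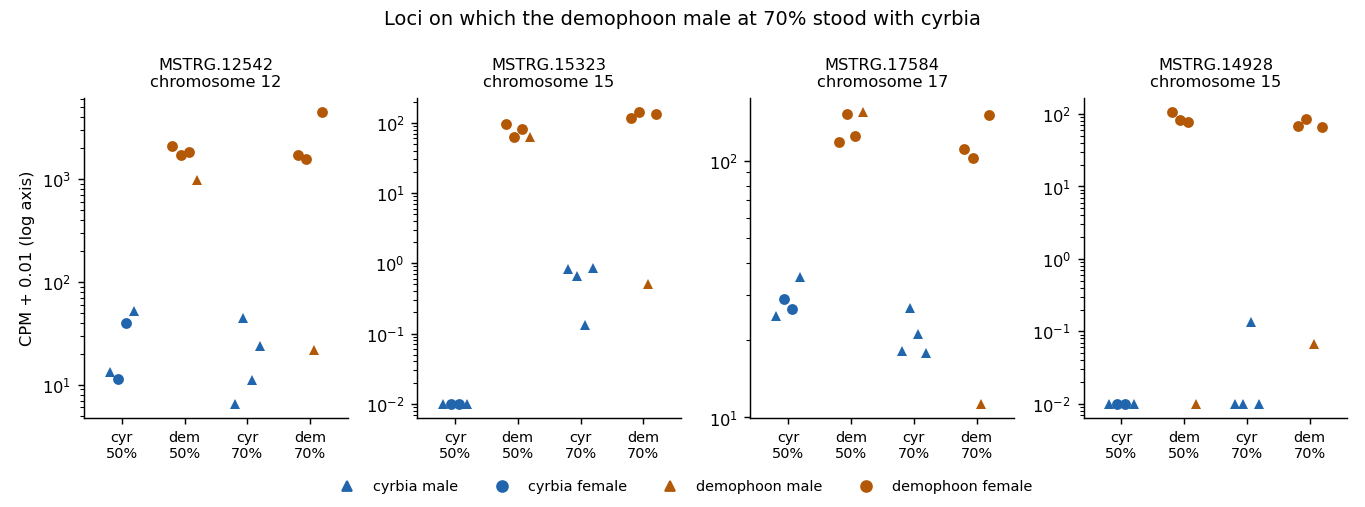
CPM plus 0.01 (log axis) of each main wing library at 50% and 70% for MSTRG.12542, MSTRG.15323, MSTRG.17584 and MSTRG.14928. Symbols are single animals, coloured by subspecies and shaped by sex. Animal 15, the demophoon male at 70%, lies with or below cyrbia on all 4 loci, and animal 8, the demophoon male at 50%, does so only on MSTRG.14928.

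The animals at 50% were other individuals than those contrasted here and included cyrbia females, although they shared the fit, and so its spread and the estimated effect of sex. Of the loci higher in cyrbia at 70%, 183 of 503 (36.4%) were DE in the same direction at 50%, where 4.33% of loci tested were higher. Of those lower, 474 of 917 (51.7%) were DE in the same direction, where 5.36% were lower. The median log2 fold changes of the same loci at 50% were 1.49 and -2.05. Loci chosen at 70% have their 70% values raised by that choice, so these medians are not a test of stage. For loci that kept their call with sex as a covariate the shares were 53.7% and 63.8%, and for those that lost it 28.0% and 37.6%. The kept loci also had larger differences at 70%, with medians of 3.23 and -4.66 against 2.79 and -2.65, and the difference between the shares was not tested. Between females alone at 50%, both cyrbia animals lay above all 3 demophoon animals on 78.0% of the higher loci that kept their call and on 53.4% of those that lost it, against 17.3% of all loci tested. For lower loci, both lay below on 71.9% and 50.1%, against 13.9%.

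**Figure D4:**
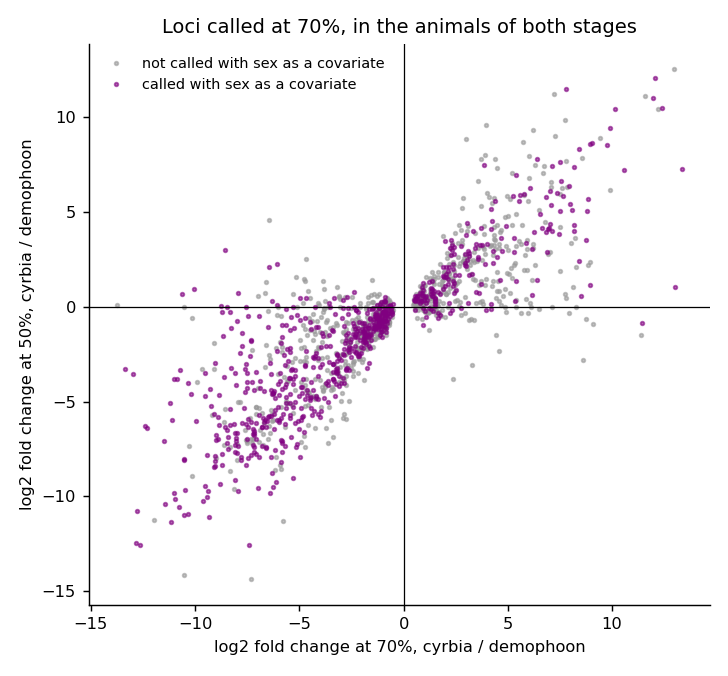
Log2 fold change between subspecies at 50% (vertical axis) against that at 70% (horizontal axis) for the 1420 loci DE at 70%, each point 1 locus, with loci also called with sex as a covariate in purple. The animals of the stages are different, and 447 of the 503 higher and 831 of the 917 lower loci keep their sign at 50%.

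The change of the subspecies difference between stages was DE for 8 loci (0.0517%), of which 4 were also DE at 70%. MSTRG.21177 on chromosome 20 (evm.TU.Herato2001.575) was at 0.973, 0.962, 2.14 and 0.330 CPM in cyrbia and 185, 160, 161 and 271 CPM in demophoon at 70%, a log2 fold change of -7.46 (SE 0.56, edgeR FDR 3.29e-06). At 50% all 8 animals lay between 2.42 and 7.47 CPM, so that the groups separated only in the later animals. MSTRG.7066 on chromosome 8 turned in direction, from 4.23 to 6.08 CPM in cyrbia and 3.28 to 3.69 CPM in demophoon at 50% to 24.6 to 30.6 CPM and 47.3 to 53.7 CPM at 70%. Its difference between subspecies was called at each stage (log2 fold change 0.52, edgeR FDR 0.0278 at 50%, and -0.90, edgeR FDR 0.00100 at 70%). The Z locus MSTRG.22095 also turned, but all its demophoon libraries at 70% were at 0.130 to 0.351 CPM. MSTRG.656, described above, widened from a log2 fold change of -3.56 at 50% to -6.39.

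On the Z chromosome 80 of 576 loci tested were DE (13.9%), 16 higher and 64 lower in cyrbia, against 9.17% of all loci tested. The share was 7.43% among annotated Z loci, against 6.06% of all annotated loci. Chromosomes 2, 6, 10, 17, 18 and 19 had annotated shares above that of Z, at 7.48% to 8.72%. With sex as a covariate the share was 7.99% over all Z loci, against 4.48%. Loci not placed on a chromosome were at 14.1%, and at 8.29% with sex. The median log2 fold change of all Z loci was -0.147 between the subspecies and -0.138 between the cyrbia males and the demophoon male, against 0.056 between the demophoon male and females. MSTRG.21793 (evm.TU.Herato2101.200) was at 47.3, 38.7, 41.2 and 41.6 CPM in cyrbia and 109, 108, 130 and 98.6 CPM in demophoon (log2 fold change -1.40, SE 0.16, edgeR FDR 0.000104). Its demophoon male was the highest of the group, and it was called with the males alone (log2 fold change -1.63, edgeR FDR 0.00115). MSTRG.21863 (evm.TU.Herato2101.252 and evm.TU.Herato2101.253) was at 58.3, 68.3, 33.3 and 58.5 CPM in cyrbia and 228, 271, 319 and 255 CPM in demophoon (log2 fold change -2.30, SE 0.40, edgeR FDR 0.00277), again with the male highest. At 50% its groups overlapped, with 81.7 to 290 CPM in cyrbia and 106 to 377 CPM in demophoon.

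MSTRG.22114 on the Z chromosome (evm.TU.Herato2101.421) was at 107 to 156 CPM in cyrbia and 227 to 473 CPM in demophoon (log2 fold change -1.31, SE 0.22, edgeR FDR 0.00216), and was not called with the males alone (log2 fold change -1.10, edgeR FDR 0.108). MSTRG.21653 (evm.TU.Herato2101.110) was the Z locus higher in cyrbia with the smallest p-value among the annotated ones named here, at 17.5 to 29.8 CPM against 1.35 to 2.82 CPM (log2 fold change 3.62, SE 0.42, edgeR FDR 0.000136). Both subspecies expressed it far more strongly at 50%, at 567 to 2160 CPM in cyrbia and 610 to 1090 CPM in demophoon.

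On chromosome 20, 52 of 846 loci tested were DE (6.15%), 17 higher and 35 lower, against 9.17% of all loci tested. With sex as a covariate the shares were 4.02% and 4.48%. Besides MSTRG.21177 and MSTRG.20971, MSTRG.20388 was at 0.150, 0.417, 1.27 and 0.462 CPM in cyrbia and 14.9, 8.88, 31.5 and 13.1 CPM in demophoon (log2 fold change -4.83, SE 0.59, edgeR FDR 0.000248). MSTRG.21467 (evm.TU.Herato2001.745) was at 2.55 to 4.23 CPM in cyrbia and 8.22 to 11.9 CPM in demophoon (log2 fold change -1.68, SE 0.24, edgeR FDR 0.000652). Both were called at 50% as well, in the same direction (edgeR FDR 9.59e-05 and 0.000143).

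**Figure D5:**
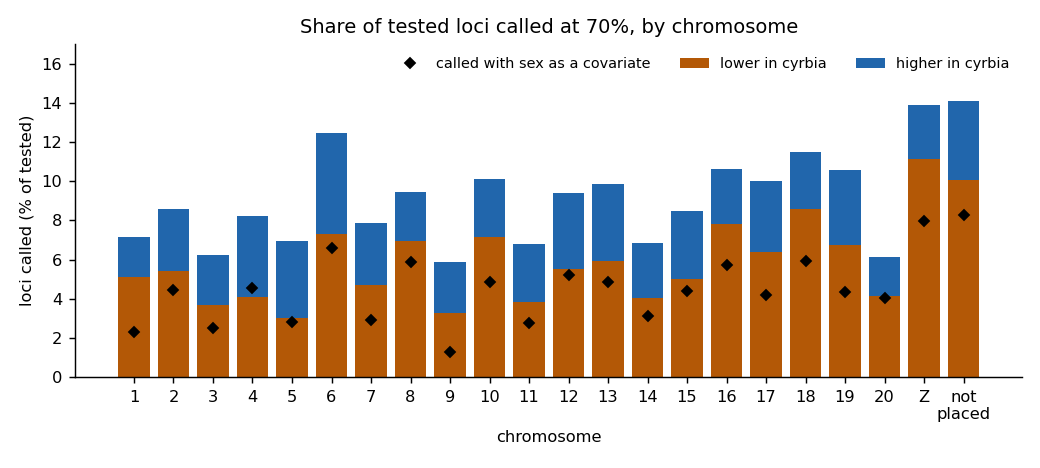
Percentage of tested loci DE at 70% on each chromosome, stacked by direction, with diamonds for the percentage with sex as a covariate. The share was 13.9% on Z, 12.4% on chromosome 6 and 6.15% on chromosome 20, and fell on every chromosome with the covariate.

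DE loci were in places adjacent. Of 14967 pairs of neighbouring tested loci, 152 were both DE in the same direction, 32 higher and 120 lower, and 21 runs of 3 or more neighbours held 68 loci. The longest, MSTRG.7185 to MSTRG.7189 on chromosome 8, held 5 unannotated loci lower in cyrbia. Its last member, MSTRG.7189, was at 0, 0.192, 0 and 0.044 CPM in cyrbia and 7.27, 11.5, 10.0 and 10.2 CPM in demophoon (log2 fold change -7.16, SE 0.93, edgeR FDR 0.000364), and all 5 kept their call with sex as a covariate. The 3 runs of 4 loci were MSTRG.2738 to MSTRG.2741 on chromosome 4, all higher in cyrbia, MSTRG.18531 to MSTRG.18534 on chromosome 18 and MSTRG.22317 to MSTRG.22320 on Z, both lower. With sex as a covariate 1, 1 and 3 of their loci kept the call. In the chromosome 18 run the 3 annotated loci differed by log2 fold changes of -0.85 to -0.90 and the unannotated MSTRG.18534 had no count in cyrbia. MSTRG.7185, MSTRG.2738, MSTRG.2739, MSTRG.18533 and MSTRG.22318 each lost their call when 1 or another animal was left out. The assembly can divide a gene over adjacent loci, so neighbours need not be separate genes.

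In 50 of the 14967 neighbouring pairs the loci were DE in opposite directions, and in 30 of these the summed level of the pair overlapped between subspecies. Over all loci tested, 3.25% were higher and 5.92% lower in cyrbia. How many pairs of either kind these shares give if calls fall without regard to position was not computed. The counts of 152, 50 and 30 pairs therefore have no background and only describe the calls. The annotated MSTRG.3578, lower in cyrbia, lay beside the unannotated MSTRG.3579. The latter was at 47.2, 35.0, 32.4 and 36.5 CPM in cyrbia with no count in the demophoon main wing at 70% (edgeR FDR 0.000364). Elsewhere in demophoon MSTRG.3579 was at 0.63 CPM in animal 7 at 50% and 0.0468 CPM in the anterior hindwing of animal 13. The sum of MSTRG.3578 and MSTRG.3579 was still lower in cyrbia, at 225 ± 139 against 978 ± 47.6 CPM (SD, n = 4). MSTRG.4554 lay beside MSTRG.4553, which was at 33.9 to 43.3 CPM in cyrbia and 10.2 to 25.1 CPM in demophoon (edgeR FDR 0.0385, lost without any 1 of the 8 animals). The Z locus MSTRG.21687, at 48.5 to 54.5 CPM against 98.1 to 181 CPM, lay beside MSTRG.21688, at 8.44 to 44.8 CPM against 0.418 to 1.63 CPM, and their summed levels overlapped. MSTRG.21688 was not called with the animal as a block (limma FDR 0.158).

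A set of 428 DE loci was called without each of the 8 animals in turn and also with sex as a covariate, with the 8 libraries alone (8.06% of loci tested DE), in the anterior hindwing (9.64%), with RLE scaling and with DESeq2. It held 90 loci higher and 338 lower in cyrbia, 140 of them annotated. At 50%, 307 of its loci were DE in the same direction, where 9.69% of loci tested were DE, 4.33% higher and 5.36% lower. The animals at 50% also entered the fit with sex that was a condition for the set. Of the loci named above, MSTRG.10205, MSTRG.3221, MSTRG.4554, MSTRG.17738, MSTRG.7826, MSTRG.21177, MSTRG.18038, MSTRG.21793 and MSTRG.21863 were among those that belonged to it. So did MSTRG.12542, although its log2 fold change with the males alone was -0.01, since that fit was no condition for the set. MSTRG.656 did not belong, through the anterior hindwing of animal 9.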

How the data were processed

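The authors prepared libraries with a TruSeq v2 kit. According to the submitters' processing notes, reads were trimmed with Trimmomatic (v. 0.38), aligned with HISAT2 (v. 2.1.0), handled with SAMtools (v. 1.9) and assembled with StringTie (v. 1.3.5). Neither the genome build nor the use of strand was stated in what was read for this work. The authors deposited raw counts per locus, not normalized, for 24118 loci. StringTie derives these from coverage, so reads of adjacent loci can be divided differently between libraries. A total of 22334 loci have an assembly ID and 1784 a gene model ID alone, 13055 are annotated, and 0 IDs matched the 14137 genes of a RefSeq table for assembly Hedem_Duke_1.1, so no gene names or sequences are given. Chromosomes come from the gene model IDs, and loci without one were placed by the locus number of their neighbours, which left 815 unplaced.

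Counts of the 16 main wing libraries were fitted with edgeR (v. 4.0.16, limma v. 3.58.1, R v. 4.3.3) as group means, with filterByExpr, TMM scaling, the robust quasi-likelihood F test and Benjamini-Hochberg FDR below 0.05. Positive changes are higher in cyrbia. The standard error is the size of the log2 fold change over the square root of F. Bounds against groups with no count use 3 counts per library and cover counting error only. Library measures were compared by exact permutation (scipy). The animal is the replicate. Alternatives were RLE and upper-quartile scaling, 2 other filters, DESeq2 (v. 1.42.0), sex as a covariate, males only, the 8 libraries alone, the anterior hindwing, summed regions, the animal as a block, and leaving out each animal. The fitting was tested on simulated data, in which 8 of 100 loci changed 2-fold and 41 of 98 loci changed 4-fold were called. Of 14613 unchanged loci, 0 were called. A locus that was not called can therefore still differ.

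Loci named are, in each direction, the 5 annotated and 3 unannotated loci of highest mean CPM that were DE, DE with sex, at least 2-fold and not overlapping, the 3 annotated loci of smallest p, 3 each on Z and chromosome 20, 2 with no count in the other subspecies, 1 locus that is not reported here, the 3 most abundant on which animal 15 sat with cyrbia, those DE in the stage interaction, and the longest runs, with ties. Added after values were seen were loci DE between the demophoon male and females, opposite neighbours of named loci, the top unannotated loci of animal 13 and MSTRG.14928. Members and lists were chosen with earlier results of these data known.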

Additional observations from a re-analysis of the deposited data

Results flagged for a closer look

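In 8 of 71 groups of 4 animals formed from the named loci, 1 library stood far from the other 3 (Dixon's test at the 95% level). Chance gives such a gap in about 1 group in 20, but some loci, MSTRG.15323 and MSTRG.6165 among them, were named for the position of animal 15, so the count is not comparable with that rate. Among demophoon animals at 70%, animal 16 was the lowest for MSTRG.9698 at 13.3 CPM and the highest for MSTRG.15375 at 53.1 CPM, animal 13 was the highest for MSTRG.6165 at 603 CPM, animal 14 was the lowest for MSTRG.7066 at 47.3 CPM, and animal 15 was the lowest for MSTRG.15323 at 0.504 CPM. Among cyrbia animals at 70%, animal 12 was the highest for MSTRG.20971 at 414 CPM, animal 9 for MSTRG.21687 at 54.5 CPM and animal 10 for MSTRG.21467 at 4.23 CPM.

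The subspecies difference changed between stages for 4 loci that were DE at 70%, by the interaction term of the edgeR fit. The log2 fold change at 70% minus that at 50% was -6.98 for MSTRG.21177 (edgeR FDR 0.00039), -2.83 for MSTRG.656 (edgeR FDR 0.026), -1.43 for MSTRG.7066 (edgeR FDR 0.0121) and -8.34 for MSTRG.22095 (edgeR FDR 0.026). MSTRG.22095 had no count in any cyrbia main wing library at 70%, so its fitted value depends on the prior count.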

How the results depend on the processing

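The count of DE loci at 70% was 1420, and it moved to 2491 with DESeq2, 2379 with regions summed per animal, 693 with sex as a covariate, 337 with males only and 241 with the 8 libraries alone and sex. Without 1 animal it ran from 921 (without animal 15) to 1392. With the animal as a replicate block over 32 libraries it was 2000 (paired libraries of an animal correlated at 0.655), within 1.5 times. Leaving out loci switched on in 1 region and off in the other of some animal, an alternative chosen after seeing the data, gave 1403. At 50% the count of 1500 moved to 2642 with DESeq2 and ran from 950 to 1553 without 1 animal. The interaction count of 8 moved to 338 with DESeq2 and 31 in the anterior hindwing, and ran from 2 to 19 without 1 animal. The share DE on Z moved from 13.9% to 7.43% among annotated loci and 7.99% with sex, and on chromosome 20 from 6.15% to 3.77% and 4.02%. Without 1 animal the cyrbia minus demophoon difference in loci detected after thinning ran from -393 to 68.6, that in the unannotated share from -10.9 to -3.21 percentage points, and that in the share of the 10 top loci from 0.142 to 5.21 points. The log2 fold change reversed with males only, and with the 8 libraries and sex, for MSTRG.6165 (1.26 and 1.27), MSTRG.15323 (0.25 and 0.27), MSTRG.17584 (0.88 and 0.90), MSTRG.12276 (3.18 and 3.19), MSTRG.5829 (0.68 and 0.69), MSTRG.6728 (1.09 and 1.10) and MSTRG.479 (1.11 and 1.12). In the anterior hindwing MSTRG.479 also reversed (0.23). The fits restricted to males, or with sex on 8 libraries, set cyrbia against animal 15, which was low on these loci.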
